A study of Caenorhabditis elegans with 23 samples.

Results

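This report describes the core genes that decide whether C. elegans germ cells become sperm or oocytes: her-1, tra-2, tra-3, fem-1, fem-2, fem-3, tra-1, fog-2 and fog-3. They were found by their names in the gene column of the deposited tables, with no cut-off on a measured value. Earlier results of these data were known when the genes were chosen. Of the 9 genes, 8 had a row of their own among 31753 gene rows, of which 19998 held any read. The row that holds tra-3 merges it with 17 names of small RNAs, so tra-3 was left out of the comparisons and its row is described in the closing section.

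The data are PAT-seq libraries, a method that tags the end of the poly(A) tail and reads from the 3′ end of the message into it. Each row therefore has a read count, a count of reads in which a tail was seen, and a mean tail length in nucleotides (nt) over those tailed reads. Sequencing run 1 held whole young adults: gld-2(q497) worms, mutant for the cytoplasmic poly(A) polymerase GLD-2; cpb-3(bt17) worms of strain YM19, mutant for an RNA-binding protein of the CPEB family; and wild-type N2, with 3 libraries each. Run 2 held young adult gld-2(q497) worms on RNAi bacteria, with 2 libraries for each target (the CCR4-NOT genes ccf-1 and ccr-4, the other deadenylase genes parn-1 and panl-2, and caf-1) and 2 for the non-targeting pcb19 control, and 2 libraries of N2 embryos of 1 and 2 cells. Every RNAi group, its control included, thus carries the gld-2 mutation per its strain label, although the treatment text speaks of N2. That text also gives HT115(DE3) bacteria for RNAi and OP50 otherwise, so run and food cannot be told apart for any gap between the run 1 and run 2 gld-2 worms. Each mutant is known here by a single allele. The labels do not say whether replicates came from separate cultures; every p-value here is set by how far these libraries differ, and that spread could be technical.

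In the worm, the number of X chromosomes relative to autosomes sets whether her-1 is on. HER-1 is a secreted protein of males that binds and blocks TRA-2, a membrane receptor. Free TRA-2 holds FEM-3 in check; otherwise FEM-1, FEM-2 and FEM-3 act with a CUL-2 ubiquitin ligase to lower TRA-1, a zinc-finger transcription factor of the GLI family that represses male genes. Hermaphrodites are female in the body but make sperm first and oocytes later. Their germline switches by translational control: FOG-2, an F-box protein, acts with the RNA-binding protein GLD-1 on tra-2 mRNA, and FBF proteins act on fem-3 mRNA. FOG-1, a CPEB protein, and FOG-3, a protein of the Tob family, are the last known steps that make a germ cell a sperm.

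Library totals ran from 2200091 to 15952606 reads, and 53.6 to 89.1% of reads per library were tailed. The 3 ribosomal RNA rows took 3.76 to 34.8% of reads, most in cpb-3 replicate 3, which was also the shallowest library of run 1 at 4177617 reads. The mutated genes were read first: gld-2 had 4.04 ± 1.05 CPM in gld-2 worms, 12.0 ± 0.907 CPM in cpb-3 worms and 12.0 ± 0.669 CPM in N2 (SD, n = 3). CPM is the read count relative to library size, in the usual counts-per-million unit, with sizes scaled over all 23 libraries by TMM. The cpb-3 gene had 28.2 ± 2.94 CPM in gld-2 worms, 29.2 ± 4.58 CPM in cpb-3 worms and 54.4 ± 2.86 CPM in N2. In the RNAi groups the gld-2 gene averaged 2.39 to 5.11 CPM, below the N2 mean. The reads do not show a knock-down of any RNAi target, and caf-1 has no row, so each RNAi group goes by what its label says.

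Sperm genes were far higher in both mutants, and that is the setting in which the sex determination genes are read. Of 50 sperm genes tested (of 77 listed), 45 rose and 0 fell in gld-2 worms against N2, where 13.5% of all rows tested rose. In cpb-3 worms 42 of 50 rose and 0 fell, where 7.09% of all rows rose. The list includes genes picked with results of these data known, so its direction is not independent evidence, and many of its genes are near-identical copies among which reads may be split. The sperm protein gene msp-59 had 354 ± 20.8 CPM in gld-2 worms, 76.2 ± 15.8 CPM in cpb-3 worms and 8.89 ± 1.15 CPM in N2. Sperm genes together made up 0.625 ± 0.0796% of counts outside ribosomal RNA in gld-2 worms, 0.196 ± 0.0316% in cpb-3 worms and 0.0242 ± 0.00442% in N2. The groups did not overlap, which is given as a description, since these genes were chosen for being higher. In bulk RNA of whole worms, more cells of a kind and more RNA per cell cannot be told apart. The gld-2 worms on control RNAi in run 2 had only 0.0556 and 0.0590%, and the 10 libraries with a targeted RNAi had 0.0278 to 0.127%.

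None of the 8 sex determination genes rose past the test in either mutant, while tra-2, fem-2 and fog-3 fell in gld-2 worms. For gld-2 against N2, edgeR called 0 of 8 higher and 3 of 8 lower at an adjusted p under 0.05, beside 28.5% of all 10357 rows called in either direction (13.5% higher, 14.9% lower). A count of 3 of 8 is close to that background and is not read as a property of these genes as a group. DESeq2 called the same 3. The median log2 change over the 8 genes was -0.51, against -0.00 over all rows. For all 8 genes the CPM of gld-2 and N2 libraries did not overlap, beside 47% of all rows. For cpb-3 against N2, edgeR called 0 of 8, with 1 of 8 at an unadjusted p under 0.05, beside 2422 of 10357 rows. DESeq2 also called 0. Of all rows edgeR called 8.78% there (7.09% higher, 1.69% lower). CPM did not overlap for 3 of 8 there, beside 29.5% of all rows.

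**Figure D1:**
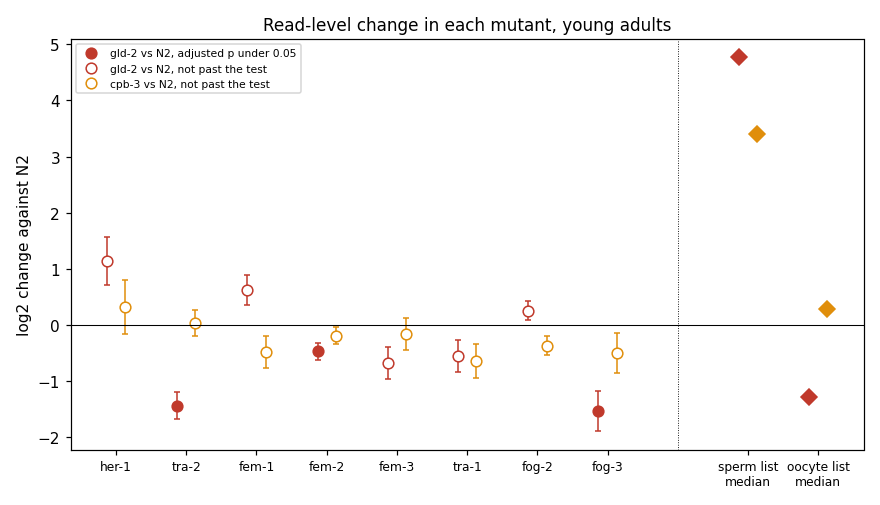
Log2 change in read level against N2 for each of the 8 sex determination genes in gld-2 worms (red) and cpb-3 worms (orange), with the standard error of the edgeR fit as bars. Filled circles passed an adjusted p of 0.05 (tra-2, fem-2 and fog-3 in gld-2), open circles did not, and the diamonds give the median log2 change of the sperm list (4.77 and 3.40) and of the oocyte list (-1.27 and 0.29).

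The ligand gene her-1 (V:9697105-9701527, plus strand; ce10 throughout) was read rarely, with 0 to 30 reads per library. It had 1.49, 1.85 and 2.21 CPM in gld-2 worms, 1.31, 0.859 and 0.830 CPM in cpb-3 worms, and 0.811, 0.943 and 0.737 CPM in N2. All gld-2 libraries lay above all libraries of the other 2 groups, while cpb-3 and N2 overlapped. The log2 change in gld-2 was 1.14 ± 0.42 (SE), with an edgeR adjusted p of 0.0575. With RLE size factors in place of TMM that p was 0.0466, and over the libraries left out in turn it ran from 0.0675 to 0.174. In cpb-3 the change was 0.32 ± 0.47 (adjusted p = 0.732).

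The receptor gene tra-2 (II:6955577-6965631, minus strand) fell in gld-2 worms and did not pass the test in cpb-3 worms. It had 4.71, 4.79 and 2.68 CPM in gld-2 worms, 12.9, 11.6 and 9.96 CPM in cpb-3 worms, and 11.5, 11.6 and 11.4 CPM in N2. Every gld-2 library was below every library of the other 2 groups. The log2 change was -1.43 ± 0.24 in gld-2 against N2 (edgeR adjusted p = 0.000264), and it kept its call under every alternative run, between -1.56 and -1.27 with single libraries left out. In cpb-3 the change against N2 was 0.04 ± 0.23 (adjusted p = 0.94). Set against each other in the same fit, gld-2 was below cpb-3 by a log2 change of -1.47 ± 0.25 (adjusted p = 0.00031).

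The low tra-2 level was shared by all groups that carry the gld-2 mutation. Group means in the 5 targeted RNAi groups ran from 4.63 to 7.78 CPM, and control RNAi had 4.80 and 7.30 CPM. The 2 embryo libraries had 8.15 and 17.2 CPM. The highest of the 15 libraries of gld-2 worms (7.94 CPM, on ccf-1 RNAi) was just below the lowest of the 8 libraries with an intact gld-2 gene (8.15 CPM, an embryo library). Both values rest on few reads, and the gap is small beside the SD of the embryo libraries. The libraries pooled here differ in run, food and stage as well as in genotype. This separation was not tested, and the share of all rows that separate in the same way was not counted. In order of means, embryo (12.7 ± 6.37), N2 (11.5 ± 0.104) and cpb-3 (11.5 ± 1.45) did not differ beyond their SD. Next came ccf-1 RNAi (7.78 ± 0.226), then the other RNAi groups from panl-2 RNAi (6.09 ± 1.15) to parn-1 RNAi (4.63 ± 1.01) and gld-2 of run 1 (4.06 ± 1.19), whose neighbours lay within their SD.

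Of the 3 fem genes, fem-2 passed the test against N2 in gld-2 worms, and none did in cpb-3 worms. The ankyrin-repeat gene fem-1 (IV:5533395-5537847, minus strand) had 33.6, 22.6 and 18.6 CPM in gld-2 worms, 16.0, 10.8 and 6.64 CPM in cpb-3 worms, and 15.1, 17.4 and 17.2 CPM in N2. The gld-2 libraries lay above all others, and cpb-3 overlapped N2. Against N2 neither change passed the test: 0.62 ± 0.26 in gld-2 (adjusted p = 0.095) and -0.48 ± 0.28 in cpb-3 (adjusted p = 0.322). Between the mutants fem-1 was higher in gld-2 than in cpb-3, by 1.10 ± 0.28 on the log2 scale (edgeR adjusted p = 0.0058), and it kept that call with each library left out. The gld-2 call against N2 was gained without gld-2 replicate 3 (adjusted p = 0.0487) and with no filter on low counts (adjusted p = 0.0463).

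The phosphatase gene fem-2 (III:632406-634569, minus strand) had 94.3, 84.3 and 97.5 CPM in gld-2 worms, 116, 114 and 101 CPM in cpb-3 worms, and 114, 141 and 131 CPM in N2. The gld-2 libraries were below those of N2, and cpb-3 lay between, overlapping N2. The log2 change in gld-2 was small, -0.47 ± 0.15 (edgeR adjusted p = 0.0321). It missed the threshold without N2 replicate 2 or 3 (adjusted p = 0.126 and 0.12), without gld-2 replicate 1 or 2 (0.0688 and 0.132), with RLE size factors (0.061) and with no filter (0.0754). In cpb-3 the change was -0.19 ± 0.15 (adjusted p = 0.492).

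The gene fem-3 (IV:9105187-9107329, plus strand), whose mRNA is the target of FBF repression, had 11.6, 8.62 and 7.56 CPM in gld-2 worms, 15.7, 16.4 and 5.39 CPM in cpb-3 worms, and 14.8, 17.8 and 12.8 CPM in N2. The gld-2 libraries were below those of N2, and cpb-3 spanned both through its replicate 3, the shallow library. The changes were -0.67 ± 0.29 in gld-2 (adjusted p = 0.0972; 0.0353 with no filter) and -0.16 ± 0.29 in cpb-3 (adjusted p = 0.784). Without cpb-3 replicate 3 the gap between the mutants was -0.77 (adjusted p = 0.0123), against -0.51 with it (adjusted p = 0.189).

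The terminal regulator gene tra-1 (III:11171993-11194961, minus strand) was read rarely, with 4 to 63 reads per library in run 1. It had 2.98, 2.67 and 3.62 CPM in gld-2 worms, 2.72, 3.51 and 1.66 CPM in cpb-3 worms, and 3.94, 4.92 and 4.64 CPM in N2. All libraries of both mutants were below all N2 libraries, but neither change passed the test: -0.55 ± 0.29 in gld-2 (edgeR adjusted p = 0.181) and -0.64 ± 0.30 in cpb-3 (adjusted p = 0.223). A merged row on the other strand overlaps tra-1 and holds 1213825 reads over all libraries, against 650 for tra-1. No source used here says whether counting used strand, so the tra-1 count, tailed share and tail length are uncertain to that extent.

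Of the germline genes fog-2 and fog-3, only fog-3 passed the test against N2, in gld-2 worms. In cpb-3 worms both lay below N2 without passing. The F-box gene fog-2 (V:20199263-20200474, plus strand) had 60.6, 64.5 and 70.6 CPM in gld-2 worms, 48.7, 44.1 and 31.5 CPM in cpb-3 worms, and 53.4, 55.8 and 56.5 CPM in N2. The 3 groups did not overlap, with gld-2 highest and cpb-3 lowest. Against N2 the changes were 0.26 ± 0.17 in gld-2 (adjusted p = 0.294) and -0.37 ± 0.17 in cpb-3 (adjusted p = 0.203). Between the mutants fog-2 was higher in gld-2 by 0.63 ± 0.17 (edgeR adjusted p = 0.00968), a call kept with each library left out. Its near copy ftr-1 lies beside it on chromosome V and could take or give reads; ftr-1 had 17.9 ± 2.52 CPM in gld-2 worms, 7.98 ± 2.62 CPM in cpb-3 worms and 10.7 ± 2.35 CPM in N2, and rose in gld-2 (log2 change 0.75, adjusted p = 0.0253).

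The sperm-fate gene fog-3 (I:10016768-10017918, plus strand) fell in gld-2 worms although sperm genes rose there. It had 11.4, 41.3 and 32.8 CPM in gld-2 worms, 76.8, 62.0 and 30.7 CPM in cpb-3 worms, and 80.8, 86.4 and 81.1 CPM in N2. The N2 libraries were above all mutant libraries, and both mutants spread widely where N2 did not. The log2 change in gld-2 was -1.53 ± 0.36 (edgeR adjusted p = 0.00426), kept under every alternative, and -1.12 without gld-2 replicate 1, the lowest library. In cpb-3 it was -0.50 ± 0.35 (adjusted p = 0.424). The difference between gld-2 and cpb-3 was -1.03 ± 0.36 (adjusted p = 0.037), and it missed the threshold without gld-2 replicate 1 (-0.63, adjusted p = 0.102), gld-2 replicate 3 (0.0547), cpb-3 replicate 1 (0.133) or cpb-3 replicate 2 (0.0918).

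In the direct comparison of gld-2 with cpb-3, edgeR and DESeq2 thus both called 4 of 8 genes (fem-1 and fog-2 higher, tra-2 and fog-3 lower in gld-2), beside 36.4% of all rows (17% higher, 19.4% lower). The other 4 had adjusted p-values from 0.162 to 0.942. Both mutants were compared with the same N2 libraries, so their values against N2 share those libraries.

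Other genes of the pathway were counted from lists chosen with earlier results of these data known. Among 7 tested genes of the X signal and the upstream switch, 4 fell and 0 rose in gld-2 worms, where 14.9% of all rows fell: the nuclear receptor sex-1, the homeobox gene ceh-39, the RNA-binding protein fox-1 and the dosage gene sdc-2. These belong to the system that reads X dose and keeps xol-1 and her-1 off in hermaphrodites. Their log2 changes were -3.78 ± 0.33, -3.03 ± 0.28, -2.30 ± 0.30 and -2.26 ± 0.35, with edgeR adjusted p-values from 3.36e-07 to 0.000146. The gene sex-1 had 0.595 ± 0.229 CPM in gld-2 worms, 8.12 ± 0.55 CPM in cpb-3 worms and 7.97 ± 0.488 CPM in N2. In cpb-3 worms 1 of 7 rose, sdc-3 (22 ± 11.9 CPM in cpb-3 worms; log2 change 1.28, adjusted p = 0.03), where 7.09% of all rows rose; the call was lost without N2 replicate 2 or 3 or cpb-3 replicate 3. The switch gene xol-1 had a change of 1.02 ± 0.51 in gld-2 (adjusted p = 0.157).

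Oocyte genes moved with these values in gld-2 worms. Of 24 oocyte genes tested, 20 fell and 0 rose in gld-2 against N2 (median log2 change -1.27), where 14.9% of all rows fell, and of 10 early zygotic genes 9 fell. In cpb-3 worms 2 oocyte genes rose and 0 fell, beside 7.09% and 1.69% of all rows. Over the alternatives 0 to 5 rose there. Oocyte genes together made up 0.520 ± 0.0914% of counts outside ribosomal RNA in gld-2 worms, 1.13 ± 0.214% in cpb-3 worms and 1.17 ± 0.0384% in N2. The part of this in the lower tra-2, fem-2 and fog-3 levels was not tested.

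Genes listed as RNA regulators of tra-2 and fem-3 moved both ways. Of 20 tested, 4 rose and 4 fell in gld-2 worms (2 to 4 and 2 to 5 over the alternatives), near the 13.5% and 14.9% of all rows. The count was 2 up without N2 replicate 1 or gld-2 replicate 1, and 2 down without gld-2 replicate 2. The risers were fog-1, the splicing-related helicase genes mog-1 and mog-5, and ftr-1. Of these, fog-1 is also on the list of TRA-1 targets, and ftr-1 is listed as the near copy of fog-2. The genes gld-1, nos-2, gld-3 and daz-1 fell. The repressor gld-1, partner of FOG-2 on tra-2 mRNA, had 124, 156 and 136 CPM in gld-2 worms, 419, 532 and 338 CPM in cpb-3 worms, and 470, 523 and 550 CPM in N2. The gld-2 libraries were below all others (log2 change -1.87 ± 0.18, adjusted p = 1.06e-06), while cpb-3 overlapped N2 (-0.23 ± 0.17, adjusted p = 0.454). Neither fbf-1 (-0.50 ± 0.26) nor fbf-2 (0.17 ± 0.24), the repressors of fem-3, passed the test in gld-2 (adjusted p = 0.181 and 0.659). In cpb-3 worms mog-3 and mag-1 rose and 0 fell, where 7.09% of all rows rose; over the alternatives 0 to 4 rose, with 0 without N2 replicate 2 or 3, 1 without N2 replicate 1, cpb-3 replicate 1 or cpb-3 replicate 2, and 4 without cpb-3 replicate 3. Of 11 tested partners of the FEM and TRA-1 proteins, 4 fell in gld-2 worms (tra-4, hda-1, rbx-1 and zyg-11), beside 14.9% of all rows, and 0 were called in cpb-3 worms, beside 8.78%; tra-4, which acts with TRA-1 in repressing male development, changed by -1.64 ± 0.27 (adjusted p = 0.000232).

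Known targets of TRA-1 repression gave a divided picture in gld-2 worms, where fog-1, mab-3 and egl-1 rose and fog-3 fell, of 6 tested. Over all rows 13.5% rose and 14.9% fell there. In cpb-3 worms the main fit called mab-3 higher and did not call fog-1, egl-1 or fog-3, where 7.09% of all rows rose and 1.69% fell. Over the alternatives 0 to 2 of these targets rose and 0 to 1 fell there. Sperm-fate gene fog-1 had 57.1, 65.9 and 64.0 CPM in gld-2 worms, 36.2, 33.7 and 29.9 CPM in cpb-3 worms, and 19.7, 25.5 and 23.6 CPM in N2. The 3 groups did not overlap; the change was 1.46 ± 0.17 in gld-2 (edgeR adjusted p = 7.75e-06) and 0.57 ± 0.17 in cpb-3 (adjusted p = 0.0522). The gene egl-1, an activator of programmed cell death, had 21.6, 21.5 and 22.7 CPM in gld-2 worms, 3.60, 2.86 and 0.830 CPM in cpb-3 worms, and 2.55, 3.88 and 1.84 CPM in N2. Only the gld-2 libraries stood high (3.03 ± 0.31, adjusted p = 1.94e-06; cpb-3 0.06 ± 0.35). In the 6 RNAi groups, all of gld-2 worms, egl-1 averaged 9.80 to 15.5 CPM, and in embryos 1.10 CPM. The levels of fog-1 there were nearer to N2, with means of 22.3 to 35.3 CPM over the 5 targeted groups and 27 ± 10.4 CPM on control RNAi, against 62.3 ± 4.66 CPM in gld-2 worms of run 1.

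The male-development gene mab-3 rose in both mutants, from few reads. It had 42, 78 and 29 reads in the gld-2 libraries, 18, 26 and 8 in the cpb-3 libraries, and 5, 2 and 8 in the N2 libraries. The log2 changes were 3.11 ± 0.48 in gld-2 (edgeR adjusted p = 0.000112) and 2.19 ± 0.52 in cpb-3 (adjusted p = 0.0165), and the cpb-3 call was lost without N2 replicate 2. In run 2 mab-3 averaged 0.611 to 1.84 CPM over the 5 targeted RNAi groups and 1.14 ± 0.325 CPM on control RNAi, against 4.14 ± 1.47 CPM in gld-2 worms of run 1 and 0.460 ± 0.217 CPM in N2. Other male markers were few and low: of 13 listed genes of male tail, male neurons and seminal fluid, 11 had a row and 2 could be tested (mab-3 and ceh-26). The test called mab-3 and not ceh-26. Of the 9 others, srj-54 was at 0 in all groups, and the other 8 (lov-1, cwp-1, cwp-2, cwp-3, cwp-4, cwp-5, ram-5 and try-5) had means of 0 to 0.593 CPM in gld-2 worms, 0 to 0.241 CPM in cpb-3 worms and 0 to 0.508 CPM in N2, the highest in each being cwp-4. The summed list, mab-3 included, ran from 7.98 to 17.2 CPM in gld-2 libraries, 6.01 to 10.4 CPM in cpb-3 libraries and 5.24 to 8.34 CPM in N2 libraries. Of 16 muscle genes 1 fell in gld-2 worms (1 to 3 over the alternatives), where 14.9% of all rows fell. In cpb-3 worms 4 rose (1 to 4), where 7.09% of all rows rose. Of 12 intestine genes 1 fell in each mutant (1 to 2 and 0 to 1 over the alternatives). Over all rows 14.9% fell in gld-2 worms and 1.69% in cpb-3 worms.

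**Figure D2:**
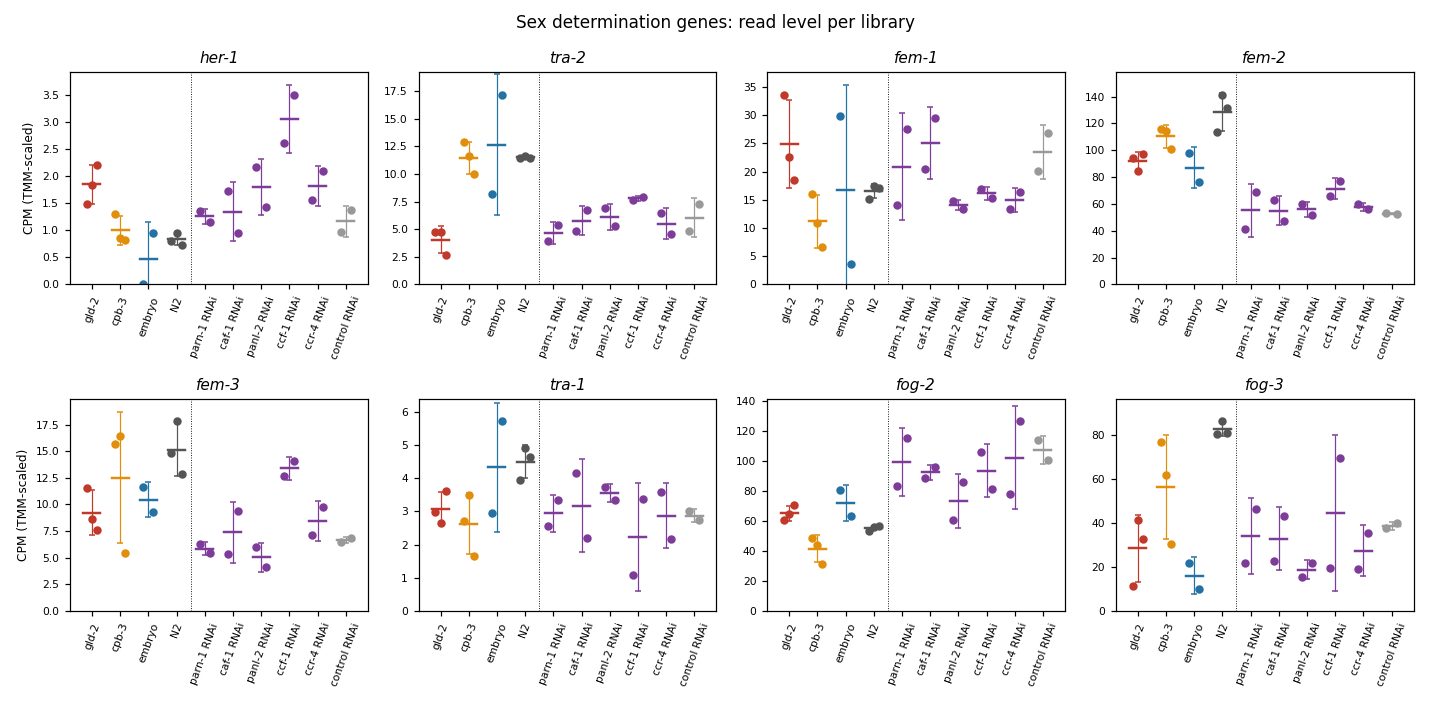
Read level (CPM, TMM-scaled over all libraries; linear axes that differ between panels) of each sex determination gene in every library. Points are libraries, horizontal lines group means and bars SD; the dotted line sets off the RNAi groups of gld-2 worms, and embryos come from run 2 as they do. The tra-2 points of gld-2 and of all RNAi groups stay below 8 CPM, while fog-3 is highest in N2.

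In the RNAi groups no sex determination gene changed its read level past the test. Each targeted RNAi was compared with the control RNAi, 2 libraries each, and edgeR called 0 of 8 in all 5 comparisons, beside 0.0% of 9908 rows. At an unadjusted p under 0.05 there were 2 of 8 for ccf-1 RNAi, beside 657 of 9908 rows. There were 0 of 8 for the other targets, beside 124 to 1582 rows, and DESeq2 called 0 of 8 in each. The 2 with ccf-1 RNAi were her-1, at 2.61 and 3.5 CPM against 0.961 and 1.37 CPM on control RNAi, and fem-3, at 12.6 and 14.1 CPM against 6.45 and 6.84 CPM. Neither overlapped its control, with log2 changes of 1.47 ± 0.60 and 1.01 ± 0.37 and adjusted p-values of 0.733 and 0.704. The parn-1 RNAi comparison was less able to find a change: in simulated counts for parn-1 RNAi the test found 2% of genes given a log2 change of 1 and 65% of those given 2, while for gld-2 against N2 it found 58% and 96%; the other targets were not simulated.

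Pooled over targets, the levels of the remaining members in the 10 targeted RNAi libraries enclosed those of the control. A range over so many libraries spans the control values easily, so it says nothing about any single target. The gene fem-2 ran from 41.2 to 77.0 CPM, with 53.1 and 52.4 CPM on control RNAi, and fem-1 from 13.4 to 29.5 CPM, with 20.0 and 26.9 CPM on control RNAi. The gene tra-1 ran from 1.09 to 4.17 CPM, with 3.02 and 2.74 CPM on control RNAi. For fog-3 the range was 15.7 to 69.6 CPM, with 37.6 and 40.1 CPM on control RNAi, and for fog-2 it was 60.7 to 126 CPM, with 114 and 101 CPM on control RNAi. On panl-2 RNAi, fog-3 had 15.7 and 21.8 CPM, fem-1 had 14.7 and 13.4 CPM and fog-2 had 60.7 and 85.9 CPM, all below both control libraries. Their log2 changes were -0.99 ± 0.59, -0.66 ± 0.34 and -0.48 ± 0.30 (edgeR adjusted p = 0.445, 0.366 and 0.46). There fem-3 (5.04 ± 1.36 CPM) also lay below the control, while tra-1 (3.55 ± 0.276 CPM) and her-1 (1.81 ± 0.520 CPM) lay above it (SD, n = 2). In all, 6 of 8 members did not overlap the control on panl-2 RNAi, and 5 of 8 on ccf-1 and on ccr-4 RNAi. With 2 libraries per group such gaps are easily reached, and their share over all rows was not counted. Between the runs, fem-2 was lower and fog-2 higher in the means of all 6 RNAi groups (52.8 to 71.4 CPM and 73.3 to 107 CPM) than in gld-2 worms of run 1 (92.1 and 65.2 CPM), a gap in which run and food cannot be told apart and which was not tested.

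Embryos of 1 and 2 cells had far fewer fog-3 reads than N2 adults. The gene had 22 and 10.0 CPM in embryos, against 80.8, 86.4 and 81.1 CPM in N2 adults, with no overlap (log2 change -2.37 ± 0.28, edgeR adjusted p = 0.000508). Embryos come from run 2 and adults from run 1, so stage and run cannot be told apart. Of 7 genes tested, fog-3 and fem-2 fell and 0 rose, beside 34.4% of all rows called; DESeq2 called the same 2. The fem-2 level was 97.8 and 76.2 CPM in embryos, against 114, 141 and 131 CPM in adults (-0.57 ± 0.17, adjusted p = 0.0295), a call lost without N2 replicate 2 or 3 (adjusted p = 0.131 and 0.116) or embryo replicate 2 (0.0574). Embryo libraries differed most for fem-1, at 29.9 and 3.57 CPM against 15.1 to 17.4 CPM in adults. Without embryo replicate 1 its change was -2.23 (adjusted p = 2.39e-05) and without embryo replicate 2 it was 0.84 (adjusted p = 0.0053), against 0.01 ± 0.59 with both. The her-1 row held 0 reads in embryo replicate 1, where 3 reads, the limit that a count of 0 allows, would be 0.741 CPM, and 4 reads in replicate 2, and was not tested. Levels of fog-2, fem-3, tra-1 and tra-2 in embryos did not pass the test (adjusted p from 0.0931 to 0.938).

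Of the 7 members tested for tail length in gld-2 worms against N2, only tra-1 passed, beside 8.11% of all rows. Its mean tails were 26.4, 28.4 and 30 nt in gld-2 worms, 43.1, 41.9 and 35.0 nt in cpb-3 worms, and 42.8, 44 and 40.2 nt in N2. All gld-2 libraries were below all cpb-3 and N2 libraries. The last cpb-3 value rests on 4 tailed reads and did not enter the fit, which needs 5; the other values rest on 20 to 61 tailed reads. The change was -14.04 ± 1.94 nt in gld-2 against N2 (limma adjusted p = 0.00763), and -14.22 ± 2.17 nt against cpb-3 (adjusted p = 0.00648), while cpb-3 against N2 gave 0.18 ± 2.18 nt (adjusted p = 0.99). Against N2 the call was kept with each library left out and with lengths centred per library (-11.25 nt, adjusted p = 0.0188). With a minimum of 10 tailed reads per library and a mean of 40 tra-1 was no longer tested. The short tails of the run 1 gld-2 worms (28.3 ± 1.81 nt) were not shared by all gld-2 worms of run 2: tra-1 averaged 42.1 ± 6.64 nt on caf-1 RNAi, 40.9 ± 7.83 nt on ccr-4 RNAi, 39.96 ± 1.94 nt on panl-2 RNAi, 34.9 ± 4.15 nt on parn-1 RNAi, 27.7 ± 16.6 nt on ccf-1 RNAi and 31.3 ± 10.8 nt on control RNAi (SD, n = 2), against 42.3 ± 1.91 nt in N2. Run and food cannot be told apart there, and this gap was not tested.

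Of the 7 members with enough tailed reads, tra-1 was the 1 called in gld-2 against N2, beside 8.11% of 7958 rows called, and the median change over the 7 was -2.92 nt against -2.22 nt over all rows. The fem-2 tails were 34.7, 33.6 and 41.1 nt in gld-2 worms, 45.8, 48.7 and 41.1 nt in cpb-3 worms, and 43.1, 41.3 and 42.1 nt in N2; gld-2 lay just below N2 without passing (-5.68 ± 2.85 nt, adjusted p = 0.296). The fog-3 tails, whose reads fell, showed no change past the test: 43.7, 38 and 51.3 nt in gld-2 worms, 46.7, 46 and 40.5 nt in cpb-3 worms, and 42.1, 41.6 and 45.2 nt in N2 (1.36 ± 3.61 nt in gld-2, adjusted p = 0.892). Nor did the tra-2 tails, at 26.7, 29.3 and 29.8 nt in gld-2 worms, 31.8, 32.3 and 25.0 nt in cpb-3 worms, and 32.7, 32.4 and 27.6 nt in N2 (-2.24 ± 2.36 nt, adjusted p = 0.678). Libraries of all 3 groups overlapped for both genes.

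For cpb-3 against N2, limma called 0 of 7 tail lengths (0.0% of 7991 rows), with 1 of 7 at an unadjusted p under 0.05 and 689 of all rows. That member was fem-1, with 38.4, 38.9 and 41.6 nt in cpb-3 worms against 34.3, 31.8 and 36.9 nt in N2 (5.28 ± 2.21 nt, adjusted p = 0.556). Between the mutants, 1 of 7 was called, tra-1, beside 15.1% of 8039 rows (14.8% lower, 0.299% higher). All 7 estimates were negative, with a median of -7.47 nt, where the median over all rows was -3.52 nt. The genes fem-1, fog-2 and fem-2 came close (-7.47 ± 2.21, -5.38 ± 1.61 and -8.73 ± 2.85 nt, limma adjusted p = 0.051, 0.0527 and 0.0701). The count of members called moved with single libraries: without gld-2 replicate 3 it was 5, without cpb-3 replicate 3 it was 3, and without cpb-3 replicate 1 or 2, where tra-1 could not be tested, it was 0. The calls over all rows moved as well, from 394 to 1664 with single libraries left out, against 1215 with all. The member counts are thus not read as a property of these genes.

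**Figure D3:**
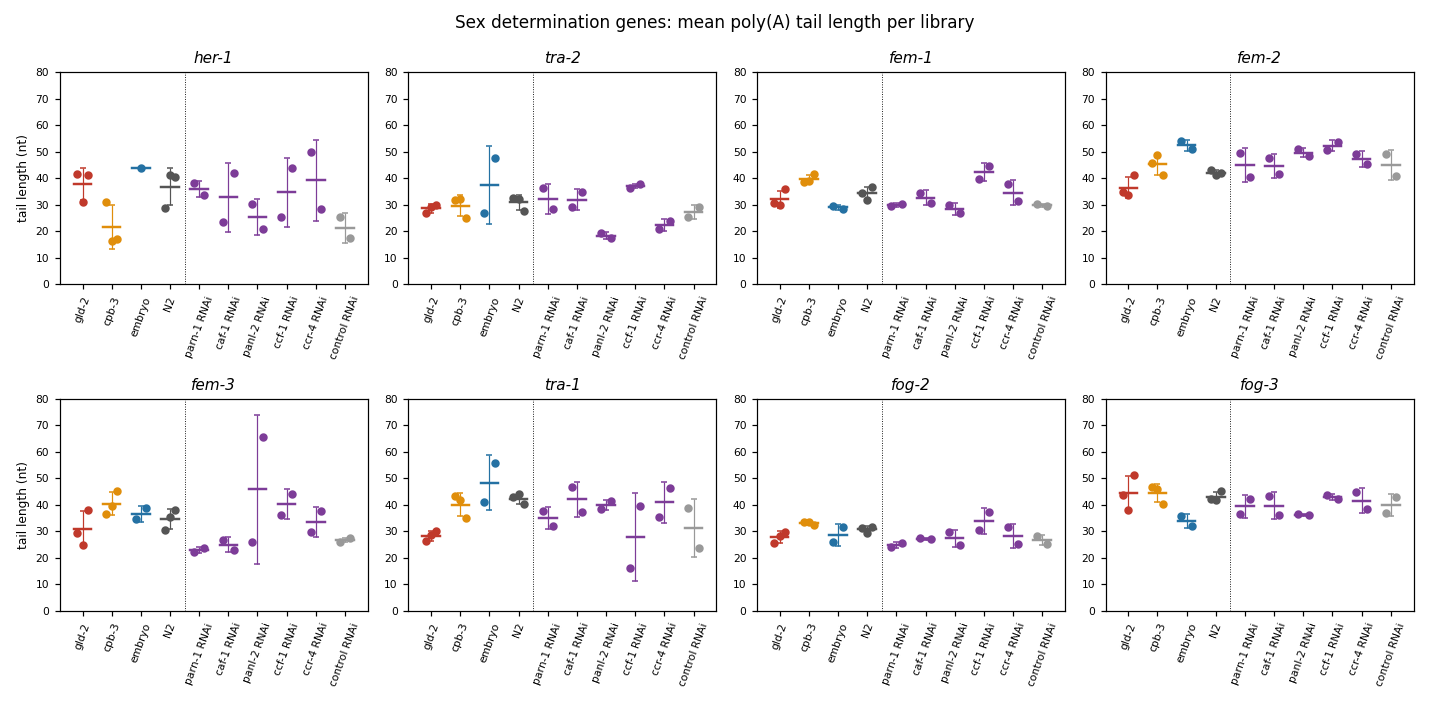
Mean poly(A) tail length (nt) of each sex determination gene in every library with at least 1 tailed read. Points are libraries, lines group means and bars SD; the dotted line sets off the RNAi groups. The tra-1 points of gld-2 worms lie at 26.4 to 30 nt, below those of N2 at 40.2 to 44 nt, and the wide bars of fem-3 on panl-2 RNAi and tra-1 on ccf-1 RNAi come from values of 12 and 2 tailed reads.

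With ccf-1 RNAi, the estimates of all 6 tested members were positive against control RNAi, and most rows had longer tails too. CCF-1 is the catalytic deadenylase of the CCR4-NOT complex. Of the 6, fem-1 passed the test, beside 11.5% of 6678 rows; the median change was 8.64 nt over the 6 and 5.31 nt over all rows. The fem-1 tails were 39.9 and 44.8 nt on ccf-1 RNAi, against 30.3 and 29.4 nt on control RNAi (12.49 ± 2.98 nt, limma adjusted p = 0.0332). Centred per library the change was 6.99 nt (adjusted p = 0.247), and the call was lost without ccf-1 RNAi replicate 2 (10.06 nt, adjusted p = 0.168) or either control library (0.0721 and 0.186). The tra-2 tails were 36.5 and 37.7 nt on ccf-1 RNAi, against 25.3 and 29 nt on control RNAi (9.96 ± 3.05 nt, adjusted p = 0.0596). Neither gene overlapped its control.

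On the other RNAi labels limma called 0 of 7 members and 0.0% of 6641 to 6698 rows. At an unadjusted p under 0.05 there was 1 of 7 on panl-2 RNAi, beside 717 of 6641 rows. On the others there were 0 of 7, beside 249 to 398 rows. PANL-2 is a subunit of the PAN deadenylase. That member was tra-2, which had the shortest tails of its 10 groups on panl-2 RNAi, at 19.2 and 17.4 nt against 25.3 and 29 nt on control RNAi (-8.82 ± 3.05 nt, adjusted p = 0.337). In embryos limma called 0 of 7 and 0.0% of 6442 rows, with 3 of 7 members and 1471 rows at an unadjusted p under 0.05. These were fem-2, with 53.9 and 51 nt in embryos against 43.1, 41.3 and 42.1 nt in N2 adults (10.29 ± 2.63 nt, adjusted p = 0.12), fog-3, with 35.6 and 31.9 nt against 42.1, 41.6 and 45.2 nt (-9.23 ± 2.34 nt, adjusted p = 0.119), and fem-1 (-5.31 ± 2.04 nt, adjusted p = 0.212). The first 2 genes moved in opposite directions with no overlap. For tra-2 the embryo libraries disagreed, at 27.1 and 47.8 nt.

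The share of reads with a tail separated fog-2 from every other member with a row of its own. In fog-2, 28.4, 25.1 and 27.5% of reads were tailed in gld-2 worms, 25.3, 24.5 and 26.3% in cpb-3 worms, and 24.7, 29.5 and 30.5% in N2. In run 2 the share was 11.8 to 25.1% in the RNAi groups and 29.8 and 10.5% in embryos. The groups of run 1 overlapped fully. In N2 the mean was 28.2%, where the median row of 6957 with enough reads had 93.1% and 16 rows were at or below fog-2. Its neighbour ftr-1 was 94.8 ± 3.16% tailed in N2 (SD, n = 3). The tails that were read in fog-2 averaged 30.7 ± 1.22 nt in N2, where the median of 9432 rows was 37.3 nt and 13.0% of rows were shorter. The other members with a row of their own and such a value in N2 ran from 80.6% (fem-3) to 100% (fog-3).

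All 2622 fog-3 reads of N2 were tailed (697, 825 and 1100 reads per library; exact 95% limits from 99.5 to 100% in the shallowest, for counting error only). Of fog-3 reads, 90.6, 97.8 and 98.1% were tailed in gld-2 worms, and 99.3, 99.5 and 100% in cpb-3 worms. The gld-2 libraries were below those of N2, and cpb-3 reached them. On the log2 odds scale, with 0.5 added to both counts, gld-2 was lower by a change of -6.01 ± 0.77 (limma adjusted p = 0.0319), 1 of 7 members called beside 0.0402% of 7462 rows. A gap to 100% on this scale depends on depth and on the added 0.5, and the call was lost on the arcsine scale (adjusted p = 0.754) and with each library left out (adjusted p from 0.0946 to 0.197). For cpb-3 against N2 limma called 0 of 7 and 0.0% of rows, with 2 of 7 (fem-1 and fog-3) and 2255 rows at an unadjusted p under 0.05. Between the mutants it called 0 of 7, beside 4.77% of rows (4.74% higher, 0.0265% lower). At an unadjusted p under 0.05 there were 1 of 7 members (fog-3) and 1972 of 7553 rows.

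In embryos the tailed shares of tra-2 and fem-2 fell against N2 adults, as did those of many rows. The median change over all rows was -1.45 on the log2 odds scale, and 37% of 6240 rows were called. Of tra-2 reads, 57.6 and 62.5% were tailed in embryos, against 78.8, 93.7 and 93.5% in N2 adults (-2.58 ± 0.69, limma adjusted p = 0.0274), and of fem-2 reads 81.1 and 86.6%, against 93.3, 95 and 93.5% (-1.58 ± 0.51, adjusted p = 0.0481). Neither overlapped, and with shares centred per library neither was called. The tra-2 call was also lost without N2 replicate 2 or 3 (adjusted p = 0.0861 and 0.0887) or embryo replicate 1 (0.0617). The fem-2 call was lost without N2 replicate 1, 2 or 3 (adjusted p = 0.0636, 0.173 and 0.139) or embryo replicate 1 (0.143). The fit also called fog-3 (-3.80, adjusted p = 0.0118) although all its reads were tailed in both groups, 89 and 42 in embryos; this value reflects depth and the added 0.5, and is 0 on the arcsine scale. On all 5 RNAi labels limma called 0 of 6 tailed shares and 0.0% of rows. At an unadjusted p under 0.05 there were 3 of 6 on panl-2 RNAi, beside 1623 of 6433 rows. There was 1 each on parn-1, caf-1 and ccf-1 RNAi and 0 on ccr-4 RNAi, beside 52 to 67 rows each. The single members were tra-2 each time, whose share averaged 64.5 to 72.8% over the 5 targeted groups, against 85.7 and 93.8% on control RNAi, from 35 and 16 reads. On panl-2 RNAi the other members were fem-2 and fem-3; the fem-2 share averaged 89.6% there, against 70.6% on control RNAi. Replicate 1 of panl-2 RNAi stood apart from the other run 2 libraries with 85.1% of all reads tailed, and its part in this was not tested.

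**Figure D4:**
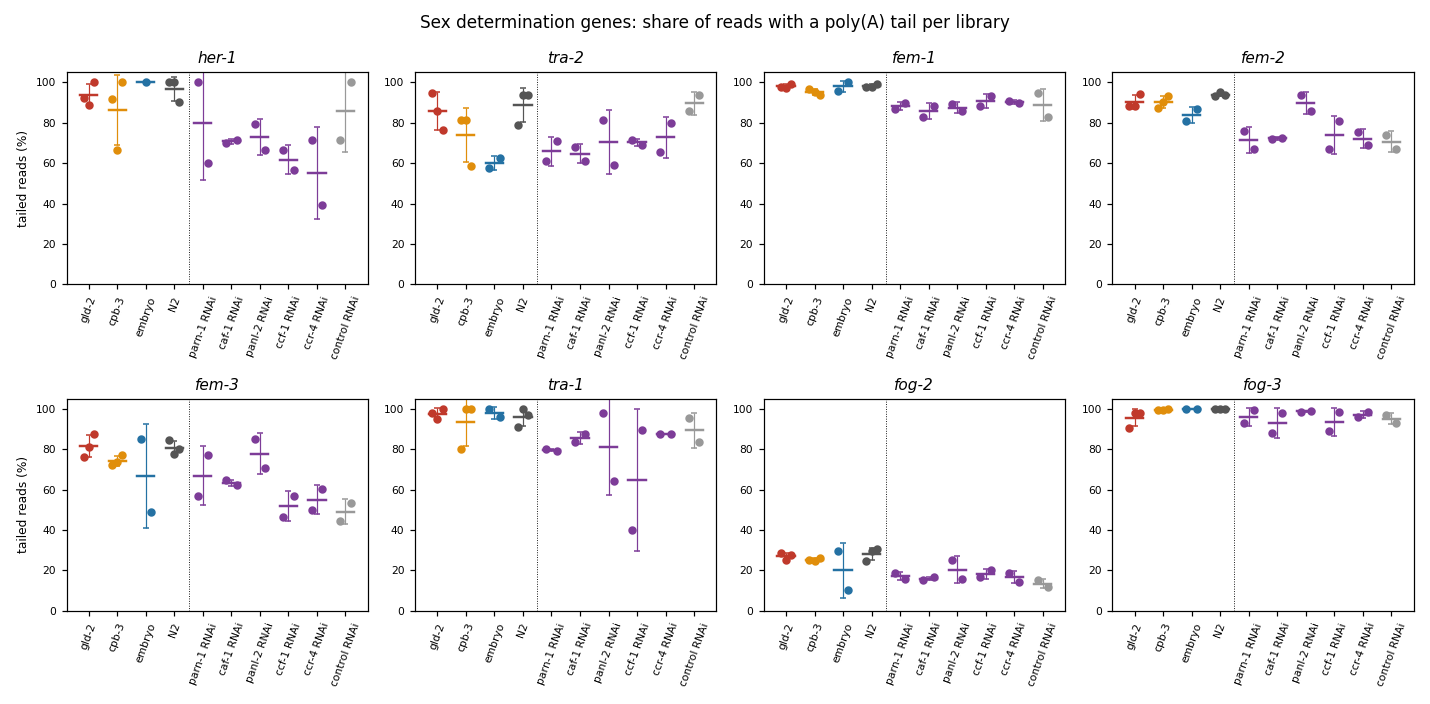
Percent of reads with a poly(A) tail for each sex determination gene in every library that had a read. Points are libraries, lines group means and bars SD, which can run past 100%; the dotted line sets off the RNAi groups. The fog-2 points lie at 10.5 to 30.5%, those of fog-3 at 87.8% or more.

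Patterns of level across the 10 group means were compared with 3489 named rows by Pearson correlation of log2(CPM + 0.5), as a description without a test, over points that share runs and scaling. The genes most like tra-2 were cyn-8, jmjd-2 and hat-1 (r = 0.98, 0.98 and 0.97). For fog-3 they were acdh-1, ztf-9 and ech-6 (0.99, 0.91 and 0.91). The closest to fem-2 was pcf-11 (0.98), to fem-3 cya-1 (0.98), to fog-2 pch-2 (0.97), to fem-1 cct-5 (0.92), to tra-1 prp-17 (0.91) and to her-1 dcp-66 (0.89).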

How the data were processed

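The deposited tables, made by the authors, hold for each gene the raw counts of reads, the counts of tailed reads, and the mean tail length in nt; units follow the table names and values. Reads were mapped to ce10 with Bowtie or Bowtie2 2.2.4, per the submitters' processing notes; the sources used here name no counting tool or tail caller. Fragments were size-selected, per the labels' protocols, which limits how long a tail can be read. Sequences are not printed, as none was held for this build; a RefSeq table of another build gave names only.

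Members and gene lists were chosen with earlier results of these data known. Levels were tested with edgeR 4.0.16 (quasi-likelihood, TMM, filterByExpr) in R 4.3.3, with DESeq2 1.42.0 as an alternative. Tail lengths and log2((tailed + 0.5)/(untailed + 0.5)) were tested with limma 3.58.1 (eBayes, trend, robust). A length needed 5 tailed reads and a row a mean of 20; a share needed 10 reads and a mean of 30; each group needed 2 values. Run 1, the RNAi libraries, and embryos with N2 were fitted apart, with Benjamini-Hochberg adjustment over all rows, called at 0.05. SE of a log2 change is its size over the root of the F statistic. Named are all members, up to 4 genes per list with the smallest adjusted p in gld-2 against N2, and others chosen after their values were seen (xol-1, sdc-3, fbf-1, fbf-2, mog-3, mag-1, mog-5, ftr-1, gld-3 and daz-1). All male markers with a row are also named. Replicates of a group differed beyond counting noise in all pairs. On simulated data, tail changes of 10 and 20 nt in gld-2 against N2 were found in 35% and 73% of cases over 7958 rows.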

Additional observations from a re-analysis of the deposited data

Results flagged for a closer look

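The row that merges tra-3 with 17 small-RNA names was used in no comparison and held 1227 reads over all libraries, which is the signal in data outside the comparisons. The gene tra-3 encodes a calpain protease that cleaves TRA-2. Its row (IV:14436652-14444122, minus strand) averaged 5.56 ± 1.48 CPM in gld-2 worms, 4.97 ± 2.36 CPM in cpb-3 worms and 4.25 ± 0.508 CPM in N2 (SD, n = 3), within 1 SD of one another. In run 2 it averaged 6.72 to 9.53 CPM over the 5 targeted RNAi groups, 7.46 ± 2.99 CPM on control RNAi and 5.21 ± 0.382 CPM in embryos (SD, n = 2). Its tails averaged 50.7 ± 5.40 nt in gld-2 worms, 46.3 ± 8.02 nt in cpb-3 worms and 50.2 ± 6.64 nt in N2. Of its reads, 63.5 ± 5.40% were tailed in gld-2 worms, 46.8 ± 3.04% in cpb-3 worms and 63.5 ± 4.82% in N2. Reads of tra-3 and of the small RNAs in the row cannot be told apart. No group has 4 libraries or more, so no test for a stray library was made.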

How the results depend on the processing

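Of the counts of called members, 108 of 117 alternatives outside left-out libraries stayed within 1.5 times. Most of these counts were 0 in the main fit, often with 0.0% of all rows called, so staying at 0 says little about stability. The alternatives that went beyond 1.5 times were these. For tail length, the stricter minimum of reads gave 0 in gld-2 against N2 and 3 in gld-2 against cpb-3, and centring gave 0 for ccf-1 RNAi. For the tailed share in gld-2 against N2 the arcsine scale gave 0 and the replicate block 0, the stricter minimum gave 1 in cpb-3 against N2, and in embryos centring gave 0 and the replicate block 1. For embryo levels the replicate block gave 1. Same-numbered libraries correlated at -0.14, 0.04 and -0.03 for gld-2 against N2 and -0.17, 0.08 and -0.06 for cpb-3 against N2. They correlated at 0.18, 0.04 and 0.16 for gld-2 against cpb-3, where each library correlated best with its own number, and at 0.08 to 0.16 over the RNAi comparisons of 2 pairs. No comparison of 3 pairs had every value over 0.1, so the numbers are not used as pairs; the block changed no other count of members.

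With single libraries left out, counts ran from 0 to 5 for tails in gld-2 against cpb-3, 0 to 0 for the share in gld-2 against N2, 0 to 1 for the share in cpb-3 against N2, 0 to 1 for tails on panl-2 RNAi, 0 to 1 for tails on ccf-1 RNAi, 0 to 2 for the share on panl-2 RNAi, and 1 to 3, 0 to 3 and 1 to 3 for level, tails and share in embryos. Directions turned in these cases. For fem-1 level in embryos the log2 change was -0.0063 with no filter and -0.45 with the replicate block, and -2.23 to 0.84 with single libraries left out. In embryos, with single libraries left out, tails ran from -1.43 to 13.3 nt for tra-1 and -3.82 to 16.9 nt for tra-2, and the share from -2.13 to 0.38 for fem-3. Centred embryo shares gave 0.0197 for fem-2 and 0.72 for fem-3. The fem-3 tails on panl-2 RNAi ran from -0.76 to 38.9 nt. The cause was not tested. Counts over all rows moved too: in gld-2 against N2 tails gave 381 rows centred and 240 with the block, against 645, and DESeq2 called 177 rows on panl-2 RNAi, against 0. Tails in gld-2 against cpb-3 gave 394 to 1664 rows with single libraries left out, against 1215. Depth limits tra-1 and her-1 most; shares and levels of rows with few reads carry wide counting error, and groups of 2 libraries give little power.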
